A study of Mus musculus with 8 samples.

Results

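Induction of an AGO1 transgene in mouse embryonic stem cells that lack Ago2 is described here through all mature miRNAs of the deposited small RNA count table. The comparison takes 4 of the 8 libraries of the series: the AGO1 line without doxycycline (A and B) and the same line with doxycycline at 1 µg/mL (A and B), as titled by the submitters. Both groups carry the 129/Ola background, the Ago2 knockout and the inducible transgene, and both were kept in puromycin at 2 µg/mL, in 15% serum with 100 U/mL LIF, so they differ in the labels by doxycycline alone. The line was made from Ago2 knockout line 1, and the 4 libraries name 1 source line, so the results are those of 1 line. How long the cells were induced and whether A and B are separate cultures is not stated. The spread between A and B may therefore be technical. The p-values rest on a spread estimated over all 8 libraries of the series, wild type and knockout lines included. Doxycycline-treated cells without the transgene are not among the 8 libraries, and an effect of the drug and an effect of AGO1 cannot be told apart. The other 4 libraries are wild type E14 cells (A and B) and Ago2 knockout lines 1 and 2, which share the background and medium but carry no transgene.

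Argonaute proteins hold the mature miRNA strand of a duplex and use its seed, bases 2 to 8 from the 5′ end, to find target RNAs. Mammals have several Argonautes, of which AGO2 is the one best known for slicing targets, while AGO1 represses them without efficient slicing. A strand that is not bound is usually degraded, so the level of a mature miRNA reflects both how much is made and how much is held. In embryonic stem cells the miR-290-295 cluster is the main pluripotency locus, and the let-7 family is kept low until the cells differentiate.

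Of 1915 mature miRNAs listed, 907 had a count in the AGO1 line and 475 passed the abundance filter and were tested. These 475 held 99.9% of all counts. The remaining 1440 were not tested, among them 432 with a count in the AGO1 line, none above 24 counts in any of its libraries. Total counts were 736895 and 292895 in uninduced A and B and 1326638 and 1117435 in induced A and B, so uninduced B was the shallowest of these 4. Levels are in CPM, the usual counts scaled to 1 common library total, with each total multiplied by a scaling factor. By totals without these factors, a count of 0 (read as up to 3 counts) allowed up to 2.26 to 10.2 CPM. Levels are relative to the other miRNAs, and a shift shared by all of them cannot be seen. Ago2 and AGO1 RNA and protein were not analysed here, and induction rests on the labels. The miR-290-295 cluster took 26.1% and 25.4% of counts in the uninduced and 28% and 27.4% in the induced libraries, as the main marker of the labelled cell type. miR-451a, which AGO2 slicing matures, miR-223 of blood and miR-122 of liver had 0 counts in the 4 libraries, as had 11 of 17 listed muscle miRNAs. Other listed markers of these tissues had counts. In uninduced A and B the blood list summed to 6465.5 and 7049.8 CPM, and the liver and endoderm list to 2876.7 and 2761.1 CPM.

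Sequences of selected miRNAs are given 5′ to 3′ as in RefSeq on GRCm38.p6, with the seed in capitals. The first set holds 4 seed groups, shown because members with 1 seed had unlike changes (miR-301a-3p, miR-363-3p and let-7e-5p against their relatives) or, for miR-103-3p and miR-107-3p, nearly the same change.
miR-301a-3p: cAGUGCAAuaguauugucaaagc
miR-130a-3p: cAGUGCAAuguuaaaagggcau
miR-130b-3p: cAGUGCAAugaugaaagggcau
miR-363-3p: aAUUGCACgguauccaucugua
miR-92a-3p: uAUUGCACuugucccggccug
miR-25-3p: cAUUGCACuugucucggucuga
miR-103-3p: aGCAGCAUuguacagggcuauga
miR-107-3p: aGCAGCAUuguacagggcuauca
let-7e-5p: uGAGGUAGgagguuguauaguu
let-7f-5p: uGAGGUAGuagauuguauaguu
let-7c-5p: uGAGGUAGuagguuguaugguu
let-7d-5p: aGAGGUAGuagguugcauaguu
The second set holds large rises (miR-666-5p, miR-431-5p, miR-298-5p and miR-1197-3p) and smaller falls (miR-299a-3p, miR-92a-1-5p and miR-34a-5p). Its members shared no seed with each other, and the falls shown are not the largest.
miR-666-5p: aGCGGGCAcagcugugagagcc
miR-431-5p: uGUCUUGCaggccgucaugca
miR-298-5p: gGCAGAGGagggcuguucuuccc
miR-1197-3p: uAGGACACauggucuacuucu
miR-299a-3p: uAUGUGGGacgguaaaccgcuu
miR-92a-1-5p: aGGUUGGGauuugucgcaaugcu
miR-34a-5p: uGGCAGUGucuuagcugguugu

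Induction was compared with the uninduced line to ask which miRNAs change when AGO1 is added to cells without AGO2. Of 475 tested, 137 (28.8%) were called at an adjusted p under 0.05 by edgeR's quasi-likelihood test with Benjamini-Hochberg adjustment. Of these, 100 rose (21.1% of those tested) and 37 fell (7.79%). At least 2-fold changes were found for 84 that rose and 28 that fell, and at least 4-fold changes for 43 and 7. The median log2 fold change was 1.87 among those that rose, -1.41 among those that fell, and 0.03 over all 475. In all 137 the groups did not overlap, against 72.4% of all tested miRNAs. The miRNAs that rose took 11.2% and 11.1% of counts in uninduced A and B and 21.5% and 23% in induced A and B, while those that fell went from 5.71% and 5.96% to 2.44% and 2.5%.

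The number of calls and their split by direction depended on scaling and on single libraries. With library totals in place of scaling factors the median over all 475 became -0.17, a shift of -0.21, and the calls split into 83 that rose and 64 that fell. With 1 library left out, 57 were called without uninduced A, 75 without uninduced B, 78 without induced A and 69 without induced B, and 44 calls (39 that rose and 5 that fell) remained in all 4 of these fits. The 5 that fell in each were miR-19a-5p, miR-299a-3p, miR-375-3p, miR-6539 and miR-92a-1-5p.

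**Figure D1:**
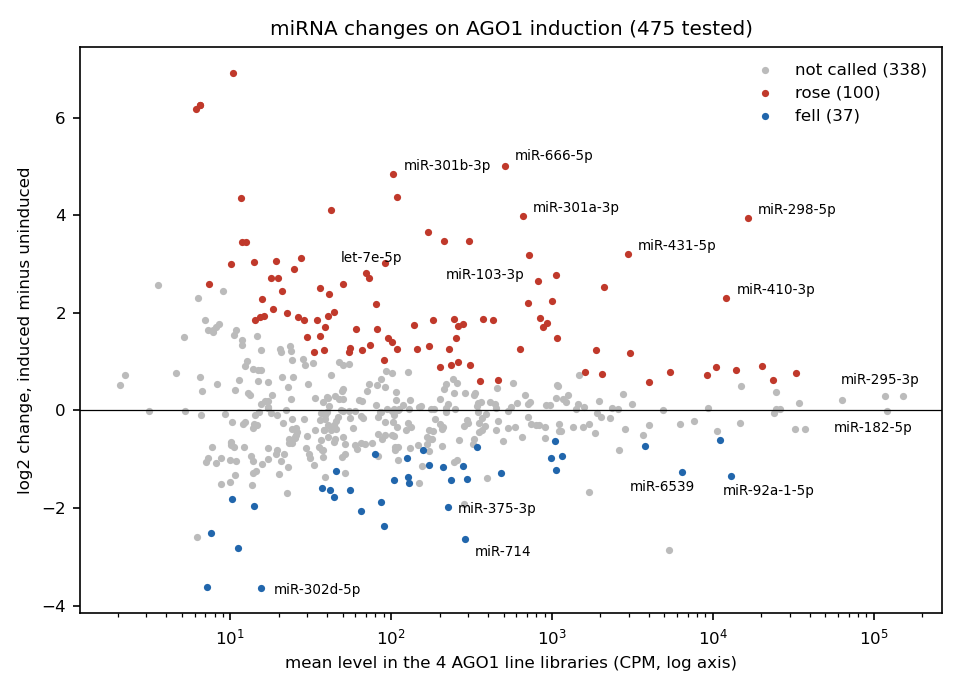
Log2 change on induction (y axis, induced minus uninduced) against the mean level in the 4 AGO1 line libraries (x axis, CPM on a log axis); each point is 1 of 475 miRNAs. The 100 that rose (red) reach higher than the 37 that fell (blue) reach down, and the most abundant miRNAs lie near 0.

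Among the abundant miRNAs, miR-298-5p, from the imprinted Nespas-Gnas region, rose most. It stood at 2063 and 1934 CPM in uninduced A and B and at 29924 and 31986 CPM in induced A and B. The induced libraries thus lay far above the uninduced ones and also above wild type (15422 and 13677 CPM). The log2 fold change was 3.95 ± 0.34 (SE, n = 2 a group, edgeR adjusted p = 1.57e-05). Its gene lies on chromosome 2 (174267553 to 174267575, minus strand) where no other annotated gene overlaps. miR-410-3p, from the far end of the Dlk1-Dio3 cluster, had 3876 and 4229 CPM without and 18629 and 21573 CPM with doxycycline, with no overlap (2.31 ± 0.19, edgeR adjusted p = 1.3e-05). Both calls were kept with each library left out.

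The 8 most abundant miRNAs changed less. miR-295-3p, the leading arm of the miR-290-295 cluster, had 145089 and 128051 CPM uninduced and 179555 and 154363 CPM induced (0.29 ± 0.15, edgeR adjusted p = 0.167). miR-182-5p, from a cluster known in sensory cells, had 136181 and 107930.0 CPM against 129649 and 113304 CPM, which overlapped (-0.01 ± 0.14, edgeR adjusted p = 0.977). The log2 fold changes were 0.30 for miR-127-3p, 0.22 for miR-22-3p, -0.37 for miR-411-5p, 0.16 for miR-292a-3p and -0.37 for miR-92b-3p, none of them called. miR-541-5p of the Dlk1-Dio3 cluster was the exception, at 26420 and 22386 CPM uninduced and 42594 and 39992 CPM induced (0.76 ± 0.21, edgeR adjusted p = 0.0221). That call was lost without each of the 4 libraries in turn.

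The miR-130 and miR-301 family shares the AGUGCAA seed on its 3p arms and is known for promoting proliferation. Of its 8 tested members 5 rose and 0 fell, against 21.1% rising over all miRNAs, with a median log2 fold change of 1.85. Arms were counted singly, and the hairpins of miR-301a and miR-301b each entered the 5 rises through their 5p and their 3p arm. The 5 are therefore not 5 separate hairpins. miR-301b-5p had 1 and 0 counts in uninduced A and B and 34 and 16 in induced A and B. The size of its rise thus rests on almost no uninduced counts. miR-301a-3p had 74.5 and 82.7 CPM in uninduced A and B and 1319.8 and 1158 CPM in induced A and B. The induced level was many times the uninduced one but below wild type, at 3920.3 and 3638 CPM. The change was 3.99 ± 0.21 (edgeR adjusted p = 5.54e-07). Its gene lies in an intron of Ska2 on chromosome 11 (87113054 to 87113076, plus strand, same strand as Ska2). miR-301b-3p rose from 5.32 and 9.92 to 196 and 201 CPM (4.84 ± 0.34, edgeR adjusted p = 4.05e-06), but the uninduced values rest on 4 and 3 counts. The other arm, miR-301a-5p, also rose, from 6.66 and 3.31 to 51.3 and 48.8 CPM (3.12 ± 0.52, edgeR adjusted p = 0.00177).

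miR-130a-3p and miR-130b-3p, which share the seed of miR-301a-3p, moved far less. miR-130a-3p had 3160.2 and 3257 CPM uninduced and 4794 and 4765 CPM induced (0.58 ± 0.18, edgeR adjusted p = 0.0358), a call lost without each of the 4 libraries in turn. The family's 5 rises became 3, 4, 4 and 4 without uninduced A, uninduced B, induced A and induced B. miR-130b-3p had 2039 and 2173 CPM against 1849 and 1992 CPM (-0.13 ± 0.20, edgeR adjusted p = 0.64). As the printed sequences show, the 3 differ after the seed. Before induction miR-301a-3p was much less abundant than both relatives, and after it all 3 lay between 1158 and 4794 CPM. The difference between members was not tested.

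miR-103-3p and miR-107-3p, nearly identical in sequence and made from introns of the Pank genes, rose together. miR-103-3p had 225 and 222 CPM in the uninduced and 1389 and 1434 CPM in the induced libraries, with no overlap (2.66 ± 0.21, edgeR adjusted p = 1.02e-05). miR-107-3p had 14.6 and 26.5 CPM against 131 and 119 CPM (2.71 ± 0.38, edgeR adjusted p = 0.000593). The miR-103 genes lie in introns of Pank2 (chromosome 2, 131288103 to 131288125) and Pank3 (chromosome 11, 35782447 to 35782469), and miR-107 in an intron of Pank1 (chromosome 19, 34820700 to 34820722). Reads of the pair may be hard to assign, since their sequences differ so little.

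The let-7 and miR-98 family, which promotes differentiation and is held down by LIN28 in pluripotent cells, had 4 of 10 tested members that rose (40%, against 21.1% over all miRNAs) and 0 that fell, with a median of 1.08. The 4 rises became 2, 2, 3 and 4 without uninduced A, uninduced B, induced A and induced B. let-7e-5p rose from 17.3 and 16.5 to 112 and 131.5 CPM (2.82 ± 0.35, edgeR adjusted p = 0.000272). let-7f-5p rose from 129 and 136 to 380 and 364 CPM (1.49 ± 0.28, edgeR adjusted p = 0.00353). Both calls were kept with each library left out. let-7a-5p (1.49) and let-7g-5p (1.35) also rose, but let-7a-5p was lost without either uninduced library, and let-7g-5p without either of them or without induced A. let-7c-5p, at 219.6 and 142.2 CPM against 264 and 229 CPM, was not called (0.43 ± 0.30, edgeR adjusted p = 0.306), nor was let-7d-5p (0.19 ± 0.57, edgeR adjusted p = 0.841). These sequences share the GAGGUAG seed and differ little beyond it, so reads may be shared among them. The family as a whole stayed scarce, at 0.0566% and 0.0478% of counts before and 0.102% and 0.0959% after induction.

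let-7e lies beside miR-99b and miR-125a in an intron of Spaca6 on chromosome 17, and the values of the 3 hairpins differ, though that difference was not tested. miR-99b-5p (17830194 to 17830215) had 1162 and 1061 CPM uninduced and 2658 and 2585.0 CPM induced (1.24 ± 0.18, edgeR adjusted p = 0.000728). miR-125a-5p (17830817 to 17830840), the most abundant of them, had 7710.2 and 5995 CPM against 6264 and 4988 CPM, which overlapped (-0.28 ± 0.19, edgeR adjusted p = 0.294). miR-125a-3p was called as lower (-0.81 ± 0.27, edgeR adjusted p = 0.0463), a call lost without each of the 4 libraries in turn. Of 7 tested members of the group of miR-99, miR-100 and miR-125, 2 rose (both arms of miR-99b, 28.6% against 21.1% over all) and 1 fell. The rise of miR-99b-3p (1.04 ± 0.33, edgeR adjusted p = 0.0359) was also lost without each of the 4 libraries in turn, while that of miR-99b-5p was kept.

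The Dlk1-Dio3 imprinted cluster, whose plus-strand miRNAs are expressed from the maternal chromosome 12, gave 42 of the 100 miRNAs that rose. The 42 include miR-3071-3p, which lies on the minus strand. Of its 79 tested members 42 rose (53.2%, against 21.1% over all miRNAs) and 3 fell, with a median of 0.95, also when 2 members without counts in the uninduced group were placed at their bound. The counts that rose were 22, 25, 30 and 30 without uninduced A, uninduced B, induced A and induced B. As a share of all counts the cluster held 23.2% and 24.6% in the uninduced and 27.2% and 28.7% in the induced libraries. With 2 libraries a group no exact permutation test of a share can go below p = 0.333.

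miR-666-5p rose furthest among calls with a mean of at least 20 CPM, from 33.3 and 26.5 CPM in uninduced A and B to 927 and 1044 CPM in induced A and B. The induced values lay above all other libraries, wild type included (634 and 680 CPM). The change was 5.0 ± 0.26 (edgeR adjusted p = 5.54e-07), and the gene lies at 109717103 to 109717124 on the plus strand, where no other gene overlaps. miR-431-5p, antisense to an exon of the imprinted gene Rtl1 (109590459 to 109590479, plus strand), rose from 535 and 622 to 4870.3 and 5801 CPM (3.21 ± 0.21, edgeR adjusted p = 2.61e-06). Its wild type levels were 7415 and 6204 CPM. miR-433-3p, from the same antisense transcript, rose from 148 and 139 to 1233 and 1368 CPM (3.18 ± 0.31, edgeR adjusted p = 3.58e-05). miR-1197-3p rose from 7.99 and 13.2 to 206.1 and 205.3 CPM (4.38 ± 0.61, edgeR adjusted p = 0.000593), with 6 and 4 counts before induction. miR-412-5p, with 5 and 0 counts uninduced and 103 and 76 induced, had a change of 4.10 ± 0.58 (edgeR adjusted p = 0.000903). Without uninduced A its only uninduced count is 0 and the fitted change was 8.91, which depends on the prior count and is no bound. None of these 5 calls was lost with a library left out.

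Rising members lay along the whole cluster, with others between them that were not called. Of the tested members with a coordinate, 3 of 9 rose before miR-431, 8 of 15 from miR-431 up to miR-379, and 28 of 51 from miR-379 on, with medians of 0.52, 0.95 and 1.19. The first of these members starts at 109563744 and the last at 109747928. The abundant miR-127-3p and miR-411-5p, given above, were not called. miR-299a-3p, beside miR-411, fell from 1353 and 1600.4 to 649 and 617 CPM (-1.22 ± 0.19, edgeR adjusted p = 0.000937), and the call was kept with each library left out. The other 2 that fell, miR-136-5p and miR-381-3p, were chosen for naming after their values were seen. miR-136-5p had 483 and 377 CPM against 298 and 217 CPM (-0.75 ± 0.24, edgeR adjusted p = 0.0419), a call lost without uninduced A or either induced library.

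**Figure D2:**
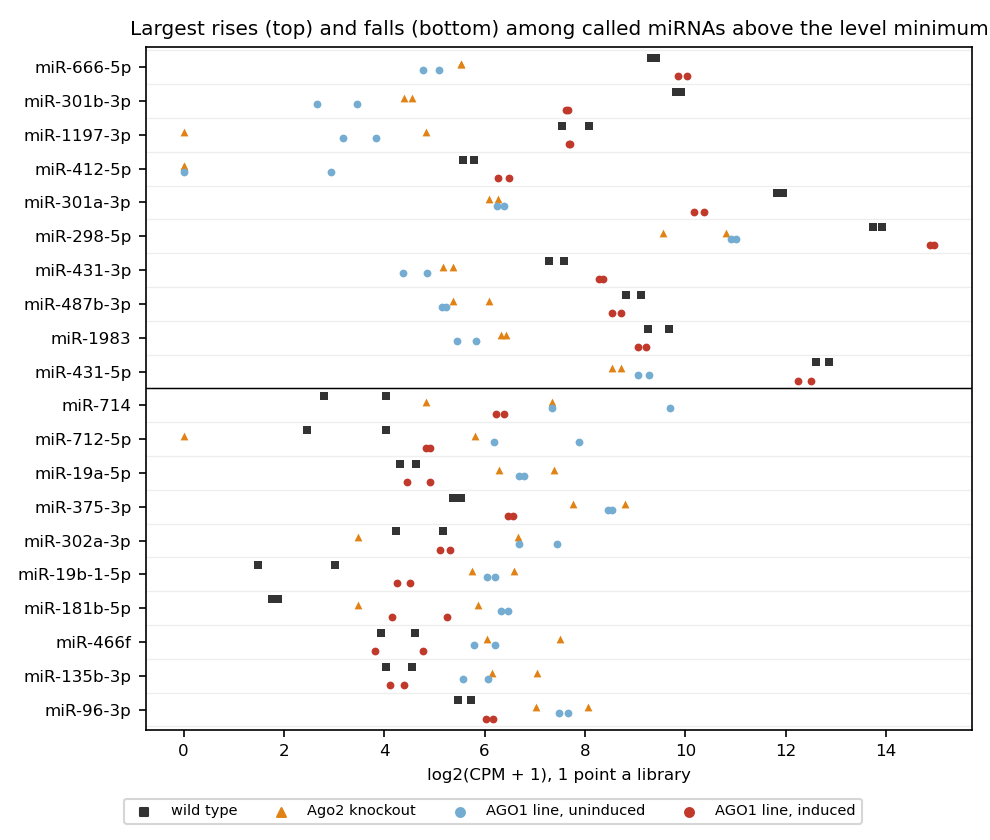
Level of each miRNA in the 8 libraries, as log2(CPM + 1), for the 10 largest rises (above the line) and the 10 largest falls (below it) among calls with a mean of at least 20 CPM. Induced points (red circles) stand near the wild type points (black squares) for most of the 10 that rose, and the uninduced points (blue circles) near the knockout points (orange triangles).

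In the miR-290-295 cluster 6 of 18 members rose (33.3%, against 21.1% over all miRNAs), 12 were not called and 0 fell. The median was 0.34 (0.13 without scaling factors), and with 1 library left out 2, 1, 3 and 0 rose (without uninduced A, uninduced B, induced A and induced B). miR-293-3p had 6884 and 7049.8 CPM against 11142 and 11863 CPM (0.72 ± 0.16, edgeR adjusted p = 0.00777), lost without uninduced B or induced B. miR-291b-5p had 16 and 19.8 CPM against 54.7 and 86.7 CPM (2.01 ± 0.41, edgeR adjusted p = 0.00489), lost without uninduced A or induced B. In the miR-302-367 cluster, of which miR-302b-3p and miR-302d-3p share the AAGUGCU seed with miR-295-3p, 3 of 5 fell (60%, against 7.79% over all) and 0 rose, with a median of -1.52. The difference between the clusters was not tested. No fall was called without uninduced A or without induced B, and 1 was called without uninduced B and 1 without induced A. miR-302d-5p fell from 34.6 and 23.1 CPM (26 and 7 counts) to 3.42 and 0.997 CPM (4 and 1 counts), a change of -3.63 ± 0.80 (edgeR adjusted p = 0.00795). miR-302a-3p had 103 and 172 CPM against 33.4 and 38.9 CPM (-1.88 ± 0.58, edgeR adjusted p = 0.0357). The whole miR-302-367 cluster took 0.0465% and 0.0546% of counts uninduced and 0.0152% and 0.013% induced.

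The list of miR-25, miR-92, miR-363 and miR-32 is tied to proliferation. Of its 7 tested members 1 rose (14.3%, against 21.1% over all) and 0 fell. By RefSeq sequence, 6 tested miRNAs carried the AUUGCAC seed, and of these 1 rose and 0 fell. The member that rose was miR-363-3p, which went from 108 and 136 to 371 and 428 CPM (1.73 ± 0.33, edgeR adjusted p = 0.00353) and remained below wild type at 3939 and 3015 CPM. miR-92a-3p, with the same seed, had 11757 and 12608 CPM uninduced and 8680 and 9571 CPM induced (-0.42 ± 0.17, edgeR adjusted p = 0.0916). miR-25-3p had 17938 and 14454 CPM against 14108 and 12940 CPM (-0.26 ± 0.18, edgeR adjusted p = 0.303). The difference between members was not tested. In the miR-17-92 list with paralogs 3 of 26 rose (11.5%, against 21.1% over all) and 4 fell (15.4%, against 7.79%). The rises became 2, 1, 2 and 2 and the falls 2, 4, 2 and 2 without uninduced A, uninduced B, induced A and induced B. miR-18a-5p rose (1.25 ± 0.22, edgeR adjusted p = 0.00275), a call lost without uninduced B. miR-92a-1-5p, the 5p arm of a miR-92a hairpin, fell from 17779 and 19238 to 7196 and 7448 CPM (-1.34 ± 0.27, edgeR adjusted p = 0.00474). It stood above miR-92a-3p in both uninduced libraries and below it in both induced ones. miR-19a-5p fell from 103 and 109 to 29.1 and 20.9 CPM (-2.06 ± 0.40, edgeR adjusted p = 0.00399).

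p53 drives the genes of miR-34, and in the family of miR-34 and miR-449 3 of 6 members fell (50%, against 7.79% over all miRNAs) and 0 rose, with a median of -1.23. miR-34a-5p had 335 and 430 CPM uninduced and 176 and 172 CPM induced, with no overlap and with wild type at 157 and 139 CPM. The change was -1.13 ± 0.23 (edgeR adjusted p = 0.00582), lost without either induced library. miR-34c-5p had 1435 and 1167 CPM against 729.6 and 604 CPM (-0.97 ± 0.25, edgeR adjusted p = 0.0159), lost without uninduced A or either induced library. The 3 falls became 1, 3, 0 and 0 without uninduced A, uninduced B, induced A and induced B.

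Other families had few called members, to be read against 21.1% that rose and 7.79% that fell over all miRNAs. Counts with a library left out are given without uninduced A, uninduced B, induced A and induced B, in that order. In the family of miR-148 and miR-152, which targets a DNA methyltransferase, both arms of miR-148b rose, 2 of 6 members (33.3%), which became 0, 0, 1 and 0. The change of miR-148b-3p was 0.99 ± 0.25 (edgeR adjusted p = 0.0159), lost without either uninduced library or without induced B, and miR-148b-5p (0.94 ± 0.30, edgeR adjusted p = 0.0388) was lost in each of the 4 fits. In the miR-15 and miR-16 family, a brake on cell division, both arms of miR-195a fell (16.7% of those tested) and the other 10 tested members were not called. These falls became 0, 2, 1 and 0. In the Sfmbt2 repeat cluster, a rodent-specific array, 1 of 41 rose and 1 fell (2.44% each), of which both were kept only without induced A and neither in the other 3 fits, and none of the 10 members of the X-linked germline cluster was called. The miR-200 family, an epithelial regulator, had 0 of 8 called, and the miR-26 and miR-101 families 0 of 7. In the miR-30 family 1 of 11 fell (9.09%), a call lost in each of the 4 fits, and in the miR-181 family 1 of 5 (20%), kept only without induced A. In the miR-23, miR-27 and miR-24 clusters 2 of 8 rose (25%) and 1 fell (12.5%), and the rises became 0, 0, 0 and 1 and the fall 0, 1, 0 and 0. Both arms of miR-21a were called as lower, and neither was called with any 1 of the 4 libraries left out. Among 6 tested miRNAs made without Drosha, 2 rose (33.3%), which became 0, 1, 2 and 1. One was miR-877-5p (3.46 ± 1.06, edgeR adjusted p = 0.0348), lost without either uninduced library or without induced B. The mirtron miR-1981-5p went from 2 and 2 counts to 36 and 37 (3.07 ± 0.59, edgeR adjusted p = 0.00375), lost without uninduced A. The edgeR-tested miR-486a-5p (-0.38) and miR-486b-5p (-0.21), which need AGO2 slicing in erythroid cells, were not called.

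**Figure D3:**
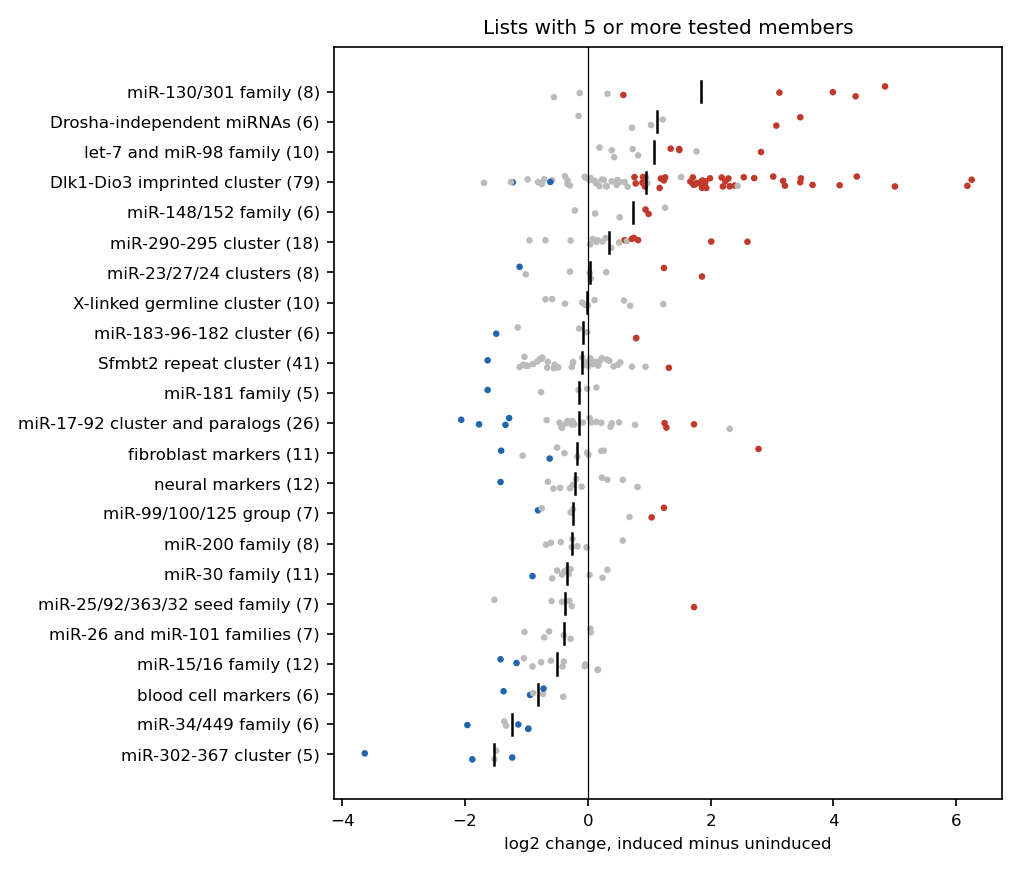
Log2 change on induction of each tested member (points) of the 23 lists with at least 5 tested members, with the number tested in brackets and the list's median as a black bar; red points rose, blue fell and grey were not called. The family of miR-130 and miR-301 has the highest median (1.85) and the miR-302-367 cluster the lowest (-1.52).

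Markers of other cell types moved with these groups in part. Blood cell miRNAs had 3 of 6 tested members called as lower (50%, against 7.79% over all miRNAs) and 0 higher, and their summed level went from 6466 and 7049.8 to 3839.6 and 4017 CPM. Of the 14 listed, 4 had 0 counts in the 4 libraries, among them miR-223-3p and miR-451a, and 0 of the 3 calls was kept with any 1 library left out. Fibroblast miRNAs summed to 60006 and 63911 CPM uninduced and 70202 and 74069.9 CPM induced. Most of each sum was the broadly abundant miR-22-3p, which was not called (0.22 ± 0.13, edgeR adjusted p = 0.235). Of the fibroblast list's 11 tested members 1 rose (9.09%, against 21.1% over all) and 2 fell (18.2%, against 7.79%), with a median of -0.17. The 2 that fell were miR-21a-5p (-0.62 ± 0.18, edgeR adjusted p = 0.0262) and miR-21a-3p (-1.41 ± 0.47, edgeR adjusted p = 0.0462), whose losses are given above. The member that rose was miR-143-3p, typical of smooth muscle and connective tissue, which rose from 252 and 291 to 1942 and 1781 CPM (2.78 ± 0.20, edgeR adjusted p = 4.05e-06) and was kept with each library left out. Both arms of miR-214, also on that list, had 0 counts. Neural markers had 1 of 12 called, as lower (8.33%, near the 7.79% over all), with summed levels of 1255 and 1610.4 CPM against 1371 and 1536 CPM. That call, miR-124-5p (-1.42 ± 0.37, edgeR adjusted p = 0.0186), was lost without uninduced A and without either induced library. The liver and endoderm list summed to 2877 and 2761 CPM uninduced and 2744 and 2555 CPM induced, and of its 3 tested members 1 fell and 2 were not called, with a median of 0.04. The member that fell was miR-375-3p, best known from pancreatic islets, which went from 349 and 370.3 to 94.1 and 87.7 CPM (-1.98 ± 0.33, edgeR adjusted p = 0.00168). The part of such cells in the changes was not tested.

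The largest falls included miRNAs that 1 library set. miR-714 had 162 and 827 CPM in uninduced A and B and 82.1 and 73.7 CPM in induced A and B (-2.63 ± 0.77, edgeR adjusted p = 0.0276). miR-712-5p had 71.9 and 235 CPM against 27.4 and 28.9 CPM (-2.36 ± 0.79, edgeR adjusted p = 0.0473). In both, uninduced B was far above uninduced A, and both calls were lost without uninduced B and without either induced library. By contrast the abundant miR-6539, with 9766 and 8498 CPM uninduced and 4014 and 3539.7 CPM induced, had replicates close together (-1.27 ± 0.23, edgeR adjusted p = 0.00285). It was named after its values were seen.

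Where both arms of a hairpin were tested (135 hairpins), they tended to move together. Both arms rose in 15 and both fell in 5, 1 arm rose in 22 and 1 fell in 13, neither was called in 80, and in none did 1 arm rise while the other fell. The Spearman correlation of the 2 arms' log2 changes was 0.649 and the Pearson correlation 0.696, as a description across hairpins in the same libraries. Among major arms, those more abundant in the wild type and knockout libraries, 69 of 259 rose (26.6%) and 14 fell (5.41%). Among minor arms 23 of 135 rose (17%) and 14 fell (10.4%). The higher share of falls among minor arms did not hold in every fit with 1 library left out, and the difference was not tested. With 1 library left out, between 41 and 51 major and between 5 and 12 minor arms rose.

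A test of the 5p to 3p ratio within hairpins, which the scaling of a library cannot move, called 7 of 135 (5.19%) by edgeR with Benjamini-Hochberg adjustment. The ratio rose for miR-666 and miR-96 and fell for miR-3071, miR-434, miR-19a, miR-136 and miR-363. For miR-666 the 5p arm made up 41% and 24.2% of both arms' counts in uninduced A and B and 83.8% and 81.2% in induced A and B, and the log2 ratio rose by 3.16 ± 0.48 (edgeR adjusted p = 0.00201). Wild type stood at 79.3% and 66.6%. For miR-434, the deepest of the 7, the 5p share was 24% and 24.1% against 12.7% and 11.5% (-1.20 ± 0.22, edgeR adjusted p = 0.00382), with wild type at 9.37% and 8.85%. Its 3p arm rose from 15005 and 13051 to 26250.1 and 26377 CPM, while its 5p arm, at 4735 and 4137 CPM against 3810.5 and 3434 CPM, was not called.

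For miR-96 the 5p share was 81% and 78.1% uninduced and 90.8% and 91% induced (1.34 ± 0.27, edgeR adjusted p = 0.00905), and for miR-19a 17.6% and 25.6% against 6.64% and 5.6% (-1.96 ± 0.41, edgeR adjusted p = 0.00905). In both, the passenger arm fell and the abundant arm was not called. miR-3071 and miR-136 are made from opposite strands of the same stretch of chromosome 12, and whether the counting used strand is not given in the sources used here. Their 5p shares were 73.7% and 80% against 23.7% and 17.9% for miR-3071 (-3.58 ± 0.62, edgeR adjusted p = 0.00382), on 19 and 20 counts before and 59 and 39 after induction, and 56.4% and 48.9% against 34.9% and 29.9% for miR-136 (-1.24 ± 0.27, edgeR adjusted p = 0.0123). miR-363, chosen after its values were seen, had 40.9% and 35.9% against 23.2% and 25.4% (-0.99 ± 0.26, edgeR adjusted p = 0.0449). Without induced A or without induced B none of the 7 was called, and without uninduced A and uninduced B 4 and 2 hairpins were.

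**Figure D4:**
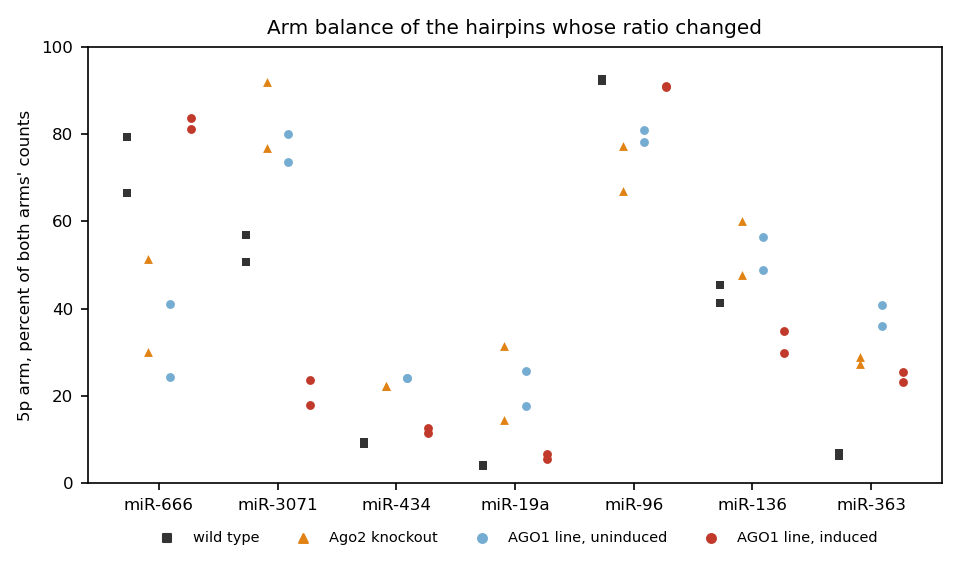
Share of the 5p arm in both arms' counts (y axis, percent) of the 7 hairpins whose arm ratio was called, with 1 point for each of the 8 libraries. The induced points lie apart from the uninduced ones in all 7, and on the same side as wild type for each.

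Setting the induction values beside those of Ago2 knockout against wild type, which uses the other 4 libraries, shows how the same miRNAs stood without AGO2. The comparisons share no library, but line 1 of the knockout is the parent of the AGO1 line, and both come from 1 fit. In the knockout comparison 274 of 475 (57.7%) were called, 121 (25.5%) higher and 153 (32.2%) lower. Of the 153 lower in the knockout, 90 rose on induction (58.8%, against 21.1% over all), 1 fell (miR-30e-5p) and 62 were not called. Of the 121 higher in the knockout, 24 fell on induction (19.8%, against 7.79% over all) and 0 rose. So 90% of those that rose and 64.9% of those that fell had changed the opposite way in the knockout. The Spearman correlation of the log2 changes was -0.73 and the Pearson correlation -0.74 over the 475 miRNAs, as a description.

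The sizes were unequal in the 2 comparisons. Among the 90, the median ratio of the rise on induction to the fall in the knockout, on the log2 scale, was 0.87, and 31 had a ratio of at least 1. Among the 24 the corresponding ratio of the fall to the rise was 0.66, and 2 reached 1. Both sets hold only miRNAs called in both comparisons, which leaves out small changes and raises these ratios. Over all 153 lower in the knockout the median log2 change was 1.25 on induction and -1.82 in the knockout. Over all 121 higher in the knockout it was -0.61 and 1.87. miR-301a-3p was lower by 5.74 in the knockout and higher by 3.99 on induction, and miR-186-5p by 3.32 and 1.80. miR-298-5p and miR-666-5p rose by more (3.95 and 5.0) than they were lower in the knockout (-3.50 and -3.86). Of the 62 that were lower in the knockout without being called on induction, the abundant miR-182-5p (-0.76 in the knockout, -0.01 on induction) is an example.

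Across all tested miRNAs the Pearson correlation of log2 CPM with the wild type libraries was 0.921 to 0.928 for the induced and 0.800 to 0.826 for the uninduced libraries. The uninduced libraries correlated with the knockout libraries at 0.930 to 0.949. The induced libraries correlated with the knockout libraries at 0.851 to 0.903 and with the uninduced ones at 0.898 to 0.916. The wild type and induced libraries were also the deepest, at 949620 to 1326638 counts, and the part of depth in these correlations was not tested. Replicates correlated at 0.990 when induced and 0.972 when uninduced. Among the 475, 114 (24%) were called in both comparisons with opposite signs. With 1 AGO1 line library left out this count was 54, 65, 66 and 59 (without uninduced A, uninduced B, induced A and induced B).

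**Figure D5:**
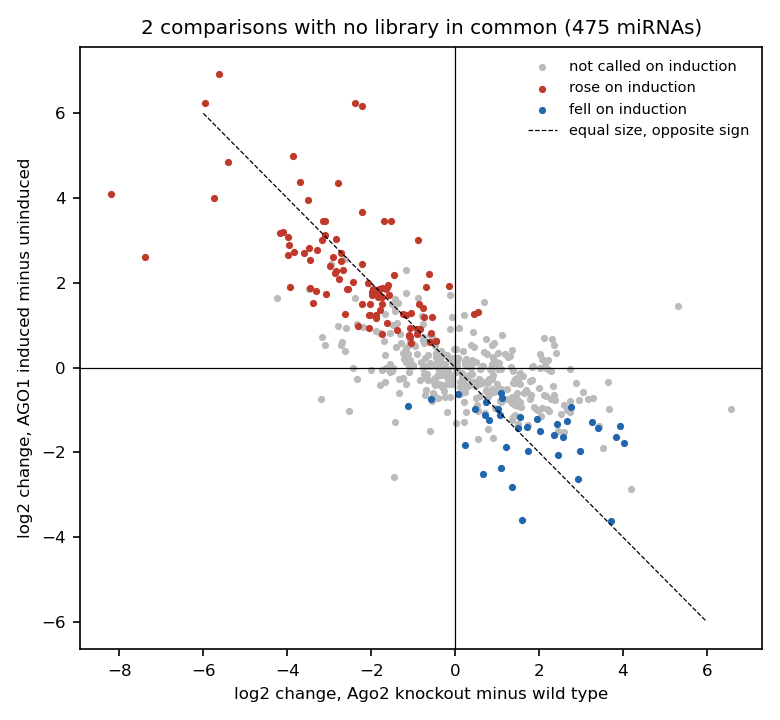
Log2 change on AGO1 induction (y axis) against log2 change in the Ago2 knockout relative to wild type (x axis) for 475 miRNAs; red points rose and blue fell on induction, and the dashed line marks changes of equal size and opposite sign. Most red points lie at the upper left (90 of 100 were called lower in the knockout) and most blue points at the lower right (24 of 37 were called higher).

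Sequences from RefSeq were matched for 384 of the 475 tested. By first base, 33.3% of 42 miRNAs that start with G rose, against 22.4% of 116 with A, 20.5% of 78 with C and 21.6% of 148 with U. The 14 rises among those with G became 4, 10, 12 and 7 without uninduced A, uninduced B, induced A and induced B, while all 100 rises became 49, 56, 69 and 62. By last base, 30.4% of 148 that end with U rose, 23% of 74 with C, 21.7% of 83 with G and 10.1% of 79 with A. In the same 4 fits the 45 rises with U became 21, 23, 29 and 28, the 17 with C 7, 12, 15 and 11, the 18 with G 8, 8, 10 and 9, and the 8 with A 7 in each. The shares that rose were 25% at 21 bases, 22% at 22 bases and 23.6% at 23 bases or more. The median GC content was 50% for those that rose, 47.8% for those that fell and 47.6% over all with a sequence. These shares are descriptions without a test.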

How the data were processed

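Mature miRNA counts of 8 mouse embryonic stem cell libraries in 4 groups of 2 were used. The authors deposited whole-number counts per miRNA, without normalization. A TruSeq small RNA kit was used on 1 µg of total RNA, per the labels' protocols, and the submitters' processing notes name Bowtie and mm10. How reads were trimmed, matched and assigned when they fit several miRNAs is not given in these sources. A row of the table that holds names and no counts was dropped.

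Totals of counts ranged from 163467 to 1326638. Counts were tested in R 4.3.3 with edgeR 4.0.16 (limma 3.58.1), 2-sided, after filterByExpr, with TMM factors (0.881 to 1.22) in 1 fit of 4 groups with Benjamini-Hochberg adjustment over 475 miRNAs and 4 residual degrees of freedom. The common biological coefficient of variation was 0.244. CPM uses totals multiplied by these factors. An approximate SE was taken as the size of the log2 fold change over the root of F. Arm ratios were fitted with both arms as columns, a term for each library, and arm by group as the effect. Both fits were tested on simulated data. Floors (3 counts) and 95% exact binomial intervals hold for counting error only, because PCR copies could not be told from molecules. Replicates of each group differed beyond sampling noise.

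Named miRNAs are the 10 largest rises and falls among non-overlapping calls at a mean of 20 CPM or more, the 8 most abundant, 2 members per list by p, and the 4 hairpins with the smallest arm ratio p in each direction. Other names were chosen after their values were seen. Members and lists were chosen with earlier results of these data known. Alternatives were DESeq2 size factors, no factors, the DESeq2 1.42.0 Wald test, other filters, fewer libraries, thinned counts, a larger fold change and a replicate block. Host genes come from GENCODE vM21 on GRCm38, the assembly of mm10.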

Additional observations from a re-analysis of the deposited data

How the results depend on the processing

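The 137 calls on induction became 67 when counts were thinned to the smallest library, and 57 to 78 with 1 AGO1 line library left out, where the remaining library of a group is assumed to vary like the others. Other settings gave 112 to 203 calls, and the split moved most without factors (83 rose, 64 fell) and with only the 4 AGO1 line libraries (114 and 89). In the labels the uninduced and induced libraries are paired only by their letter, A or B. Across the tested miRNAs the correlation of A minus B between the uninduced and induced groups was 0.197. It was 0.053 between wild type and uninduced and -0.007 between wild type and induced. With the letter as a replicate block 112 were called on induction, 6 arm ratios, and 19.2% of those tested in both comparisons with opposite signs. The 7 arm ratios became 11 with hairpins of at least 1 count in each arm, 25 with only the 4 libraries, and 0 to 4 with a library left out; 30 of 135 had an unadjusted p under 0.05. The share called in both comparisons with opposite signs, 24% of those tested, became 10.3% to 27.9% with 1 of the 8 libraries left out. Leaving out the AGO1 line libraries, and the block, were added here after the data were seen, and the former gave 10.3% to 13.1%.

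Over the named miRNAs and hairpins, 714 of the alternative values kept direction and side of the threshold, 161 lost the call, 31 gained one and 16 changed sign, all 16 in miRNAs that were not called. These were miR-182-5p without a filter (0.08), at a mean CPM of at least 20 (0.03), thinned (0.00), and with a library left out (-0.32 to 0.30, above 0 without uninduced A, 0.30, and induced B, 0.10), and miR-292a-3p without factors (-0.04) and with a library left out (-0.05 to 0.41). They also included miR-192-5p with DESeq2 size factors (-0.01), the DESeq2 Wald test (-0.01), no factors (-0.15) and a library left out (-0.14 to 0.23), and miR-29a-3p without factors (-0.11) and with a library left out (-0.20 to 0.40). The others were miR-29c-3p thinned (0.20), miR-486a-5p thinned (0.07) and miR-486b-5p with a library left out (-0.55 to 0.24). Except for fewer libraries and counts, the cause was not tested. Depth limits the rarest miRNAs most, above all in uninduced B with 292895 counts.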

Other observations

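Of the miRNAs that rose on induction, 10 were not called in the knockout comparison: miR-140-5p, miR-184-3p, miR-3068-3p, miR-351-5p, miR-410-5p, miR-466g, miR-667-5p, miR-676-3p, miR-8114 and miR-877-5p. miR-351-5p shares its CCCUGAG seed with miR-125a-5p and miR-125b-5p, and its log2 fold change on induction was 1.89, against -0.28 for miR-125a-5p. Of those that fell, 12 were not called in the knockout comparison, among them miR-302a-3p, miR-302b-3p, miR-136-5p and both arms of miR-712.

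Some rises start from no counts. miR-3085-3p had 0 counts in both uninduced libraries and 21 and 24 in the induced ones, at least 7.27-fold higher with 3 counts over the group as the floor. miR-345-5p had 0 and 0 against 13 and 15 counts, at least 4.53-fold higher by the same floor. miR-301b-5p had 1 and 0 counts against 34 and 16, a ratio of 24.2 with a 95% exact interval of 4.16 to 977. For miR-877-5p, a mirtron with 2 and 0 counts against 21 and 27, the ratio was 11.6 with an interval of 3.05 to 98.9.

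Calls were found at all levels of abundance. When the 475 were divided into 3 parts by mean CPM in the AGO1 line, 29 of 159 rose and 7 fell in the lowest, 30 of 158 rose and 15 fell in the middle, and 41 of 158 rose and 15 fell in the highest part.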
